A study of Mus musculus with 8 samples.

Results

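Chromatin accessibility of mouse granulosa cells after hCG was compared between a pair of libraries from F1 mice, titled hCG, and a pair from the wild-type arm of a Pgr knockout line, titled WT. These are 4 of the 8 ATAC-seq libraries of the series, taken by their titles, a rule that uses no measured value. Merging their peak lists gave 94538 regions. All 4 libraries held 54151 of them. Another 1641 were held by both hCG libraries and neither WT library (hCG-only), and 11064 by both WT libraries and neither hCG library (WT-only). The groups differ in strain, in experiment and in the names of the processed read files, so strain and processing cannot be told apart in anything that follows.

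ATAC-seq inserts adapters where the transposase Tn5 can reach the DNA, and sequenced ends pile up over open chromatin. All mice were 21 days old and received 5 IU of eCG, also called PMSG, which drives follicle growth. Mice of the hCG and WT groups were then given 5 IU of hCG 46 h later and killed after another 6 h, as their titles and the series' design describe it. The hCG group is labelled as strain CBA x C57BL/6 F1 with a wild-type genotype, and the WT group as strain C.129S7(B6)-Pgrtm1Bwo/OmcJ with a wild-type genotype. In mouse nomenclature the leading C of that strain name stands for a BALB/c background and 129S7 for the donor of the targeted Pgr allele, which the KO libraries of the same experiment carry. The remaining 4 libraries served only for look-up. These were 2 titled PMSG from the F1 strain, collected before hCG, and 2 titled KO from the Pgr line, collected after hCG. Each replicate pooled 2 to 3 mice and each group had 2 replicates. The labels contradict themselves on time. The libraries titled hCG carry a tag of 0 h and a peri-ovulatory source name, those titled PMSG a tag of 6 h, and the WT libraries a tag of 6 h with a pre-ovulatory source name. Titles were followed.

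Granulosa cells surround the oocyte in the ovarian follicle, divide under follicle-stimulating hormone and make oestradiol from androgen. The surge of luteinising hormone (LH), which hCG imitates, turns off part of that programme, switches on genes of ovulation and matrix expansion, and induces the progesterone receptor PGR, a transcription factor without which follicles do not rupture. Open chromatin at gene starts is largely shared between cell states, whereas distal sites vary more between states and between genotypes.

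Promoters with a region in a single group carry the clearest difference at gene starts, and the sequence of 6 of them is given first. Each printed stretch is the 250 bases before the gene start, 5′ to 3′ on the gene's strand, from the RefSeq promoter table of GRCm38.p6. The first 4 genes had an hCG-only region over the start and the last 2 a WT-only region. Positions are chr17:22225615-22225864 (minus strand) for Zfp994, chr5:104571422-104571671 (plus) for Zfp33b, chr13:62015675-62015924 (plus) for Gm3325, chr5:109751588-109751837 (minus) for 4930522L14Rik, chr17:34305617-34305866 (plus) for H2-Eb1 and chr1:58802252-58802501 (plus) for Casp8. Capitals mark matches, on either strand, to any of 10 short motifs. The motif of NF-Y is CCAAT, that of the SP and KLF factors is GGGCGG, and a steroid receptor half-site such as that of PGR reads AGAACA. The AP-1 motif is TGANTCA and the RUNX motif TGTGGTT. The GATA factors bind AGATAA and the FOX factors bind TGTTTAC. The orphan receptors of the NR5A family bind AAGGTCA. The C/EBP core is TTGCAA, while CTCF was searched by its core AGGGGGC.
Zfp994: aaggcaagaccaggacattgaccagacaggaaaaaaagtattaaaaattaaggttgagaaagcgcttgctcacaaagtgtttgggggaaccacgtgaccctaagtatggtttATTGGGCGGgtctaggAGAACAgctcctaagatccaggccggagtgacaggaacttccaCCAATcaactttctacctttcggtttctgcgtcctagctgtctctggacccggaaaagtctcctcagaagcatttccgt
Zfp33b: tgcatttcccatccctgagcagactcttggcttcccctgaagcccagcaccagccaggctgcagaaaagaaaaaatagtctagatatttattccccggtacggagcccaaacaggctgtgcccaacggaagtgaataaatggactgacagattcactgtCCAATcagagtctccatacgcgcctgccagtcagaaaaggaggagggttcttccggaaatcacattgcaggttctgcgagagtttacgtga
Gm3325: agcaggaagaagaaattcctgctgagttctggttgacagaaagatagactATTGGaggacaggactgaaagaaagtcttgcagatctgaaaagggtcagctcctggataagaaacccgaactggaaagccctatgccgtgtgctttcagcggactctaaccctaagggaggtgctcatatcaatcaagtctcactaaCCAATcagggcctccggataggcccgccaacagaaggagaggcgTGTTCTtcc
4930522L14Rik: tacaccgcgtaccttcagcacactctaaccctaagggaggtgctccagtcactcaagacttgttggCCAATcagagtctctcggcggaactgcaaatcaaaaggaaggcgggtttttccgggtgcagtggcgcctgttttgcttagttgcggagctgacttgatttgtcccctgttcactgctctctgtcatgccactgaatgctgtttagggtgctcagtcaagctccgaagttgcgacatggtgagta
H2-Eb1: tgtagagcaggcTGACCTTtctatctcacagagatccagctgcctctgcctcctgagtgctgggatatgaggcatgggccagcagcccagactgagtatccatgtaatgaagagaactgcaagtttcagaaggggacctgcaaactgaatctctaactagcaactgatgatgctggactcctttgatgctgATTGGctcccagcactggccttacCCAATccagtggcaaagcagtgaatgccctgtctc
Casp8: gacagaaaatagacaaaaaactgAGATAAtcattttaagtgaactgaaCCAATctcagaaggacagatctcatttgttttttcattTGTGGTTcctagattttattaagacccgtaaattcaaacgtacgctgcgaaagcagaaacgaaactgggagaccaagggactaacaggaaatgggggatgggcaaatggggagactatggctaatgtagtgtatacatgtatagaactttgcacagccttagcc
In the Zfp994 promoter a CCAAT match on the opposite strand overlaps a GGGCGG match. Of the 10 genes named at starts whose 250 bases touched their region, 9 held a CCAAT match, and Cfap97d2, a WT-only start, held none. CCAAT was present in 38.5% of all promoter windows of 300 bases. Over the whole classes it was present in 63.6% of hCG-only and 34.95% of WT-only windows. The 9 of 10 is therefore not a share for group-only starts in general. The 6 printed were picked from the 10 after their values were seen. The promoters of Gm3325 and 4930522L14Rik share the 24-base run actctaaccctaagggaggtgctc, and those of Zfp33b and 4930522L14Rik the 14-base run ccaatcagagtctc.

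The libraries differed in the size of their lists before any region was compared. On chromosomes 1 to 19 and X, the hCG lists held 65567 and 62327 intervals and the WT lists 80137 and 84313. Both WT lists were therefore longer than both hCG lists, with means of 82225 ± 2953 and 63947 ± 2291 (SD, n = 2 each), a ratio of 1.29. The WT intervals covered 43.9 and 43.6 Mb, against 39.0 and 38.2 Mb in hCG. Median interval width was 488 and 502 bp in hCG and 425 and 394 bp in WT, so the WT lists were longer and made of narrower intervals. A start of a protein-coding gene lay within 1 kb of 17.1% and 17.8% of hCG intervals and of 14.3% and 13.8% of WT intervals. The groups did not overlap in any of these measures. The difference at starts, 3.36 percentage points, was 0.624 points when every library gave the same number of intervals. An exact two-sided permutation test of 2 against 2 libraries gave p = 0.333 for each, the smallest value this design allows. Such p-values measure only the spread between these samples. Read depth is unknown, so absence from a list can reflect sensitivity as well as closed chromatin.

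Replicates shared more sequence than libraries of different groups. Similarity was the base-pair Jaccard index, the length covered in both lists over the length covered in either. It was 0.833 for the hCG pair and 0.767 for the WT pair. Across groups, hCG replicate 1 scored 0.694 with WT replicate 1 and 0.733 with WT replicate 2, and hCG replicate 2 scored 0.681 and 0.723. The mean within groups exceeded the mean across groups, 0.708 ± 0.0245 (SD over 4 pairs), by 0.0921 (exact permutation p = 0.333, the smallest possible). That excess was 0.0539 without hCG replicate 2 and 0.145 without WT replicate 2. Both replicate pairs thus lay above all 4 cross-strain pairs, although the WT pair lay only slightly above the closest of them. WT replicate 2 was nearer to both hCG libraries than WT replicate 1 was. WT replicate 1 in turn scored 0.590 on average with the PMSG libraries, against 0.543 for WT replicate 2, 0.562 for hCG replicate 1 and 0.553 for hCG replicate 2. All 4 libraries stood closer to the KO libraries, which were also collected after hCG, with mean indices from 0.687 to 0.700, than to the PMSG libraries, with 0.543 to 0.590. The PMSG lists covered only 29.8 and 29.9 Mb, against 38.9 and 31.7 Mb in KO. A shorter covered length limits this index, and these values were not adjusted for it.

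Most regions were common to all 4 libraries. The 54151 shared regions made up 57.3% of all merged regions, hCG-only regions 1.74% and WT-only regions 11.7%. These shares are the background against which smaller sets are read below. WT-only regions outnumbered hCG-only regions, but regions held by a single WT library were also many, with 7221 in WT replicate 1 and 8222 in WT replicate 2, against 1079 and 853 for the hCG replicates. Sets that mixed the groups were smaller than the WT-only set. Each pairing of 1 hCG with 1 WT library alone held between 177 and 884 regions, and each library alone lacked between 463 and 3868.

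**Figure D1:**
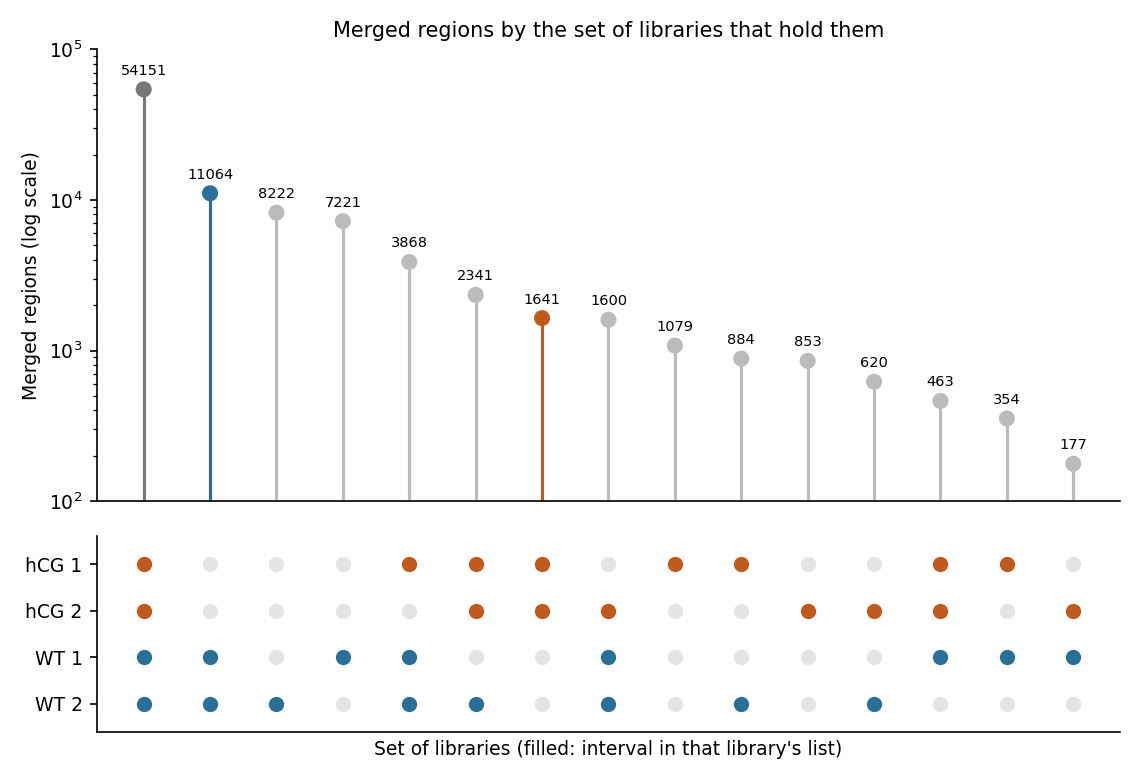
Number of merged regions (log scale) for each of the 15 sets of libraries that can hold a region, with filled dots marking the libraries. The 54151 regions held by all 4 lead, followed by the 11064 WT-only regions, and the 1641 hCG-only regions lie below 4 further sets, led by the 8222 regions of WT replicate 2 alone.

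The excess of WT-only regions depended on list length. With the 62327 intervals of highest fold from every library, hCG-only regions numbered 5264 (6.52% of 80725) and WT-only regions 4687 (5.81%), and all 4 libraries held 57.4%. Of those 5264 hCG-only regions, 72.3% were present in the full list of a WT library and 1459 in neither. Of the 4687 WT-only regions, 24 (0.512%) were present in a full hCG list. With the best 20000 intervals per library the counts were 1560 and 1294. Counts rose when 1 library alone defined a group or an absence. The hCG-only count was 3991 without WT replicate 2, 2522 without hCG replicate 1 and 2772 without hCG replicate 2. The WT-only count was 19544 without WT replicate 1 and 18408 without WT replicate 2.

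Group-only regions were shorter than shared ones, of lower rank and mostly away from gene starts. Their median length was 313 bp for hCG-only and 264 bp for WT-only, against 682 bp for regions held by all 4. Fold enrichment, as deposited by the authors, was turned into a percentile rank within each list. The median rank was 25.6 for hCG-only, 28.7 for WT-only and 60.3 for shared regions. Among regions on chromosomes with start positions, 47 of 1579 hCG-only regions (2.98%) and 191 of 10679 WT-only regions (1.79%) had a start within 1 kb. For shared regions this share was 20.01%. With equal lists the median ranks were 16.97 for hCG-only, 44.03 for WT-only and 65.9 for shared regions, and 5.17%, 1.26% and 22.1% had a start within 1 kb. Conversely, of 11261 regions at a gene start only 47 (0.417%) were hCG-only and 191 (1.7%) WT-only. Starts were thus mostly open in all 4 libraries. Across all 21044 listed starts, 62.3% had an interval within 1 kb in all 4.

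The other 4 libraries show whether a region belongs to one experiment as a whole. Regions held by both hCG and both PMSG libraries and by neither WT nor KO library are called LH-wide, and the reverse PR-wide, after the hormone and receptor the experiments address. Of the 1641 hCG-only regions, 396 (24.1%) were held by both PMSG libraries, 1534 (93.5%) by no KO library, and 363 (22.1%, Wilson 95% interval 20.2 to 24.2) were LH-wide. Another 1018 (62.0%) were held by none of the PMSG and KO libraries. With equal lists the share in both PMSG libraries was higher, 34.9%, and the other shares were lower, with 54.7% in no KO library, 11.9% LH-wide and 37.4% in none of the 4. The LH-wide share was 13.5% without WT replicate 2. WT-only regions were spread differently. Only 2027 of 11064 (18.3%) were held by both KO libraries, 3622 (32.7%) by both PMSG libraries, and 688 (6.22%, 5.78 to 6.68) were PR-wide. There were 1150 WT-only regions (10.4%) held by both PMSG libraries and by no KO library, and 3899 (35.2%) held by none of the 4. With equal lists 395 of 4687 (8.43%) were in both PMSG and no KO library and 418 (8.92%) were PR-wide, so the order of these patterns depended on list length. The PR-wide share was 4.01% without WT replicate 2. Among regions held by all 4 hCG and WT libraries, the pattern of PR-wide regions, both KO and no PMSG library, was found in 10.8%, above the PR-wide share of WT-only regions. The pattern of LH-wide regions, both PMSG and no KO library, was found in 1.298% of them. The KO lists, with 58851 and 55654 intervals, were also shorter than the WT lists. Intervals given here cover counting error only and describe these libraries.

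The LH-wide and PR-wide shares were highest among group-only regions of high rank. Of the 100 hCG-only regions with the best mean rank, 61 were LH-wide, and the share fell to 34 of the next 100, 26.3% of the next 300, 19.8% of the next 500 and 14.0% of the rest. For WT-only regions 33 of the best 100 were PR-wide, then 19 of 100, 15% of 300, 10.8% of 500 and 5.34% of the rest. Both shares fell with rank, and the LH-wide level was the higher at each step. The steps are places in classes of 1641 and 11064 regions, so these levels are not like for like. Presence in both libraries of the same experiment was instead higher in WT-only at each step. It ran from 71% of the best 100 to 15.6% after the first 1000, against 66% to 15.3% in hCG-only. A set chosen after its values were seen, the regions with a mean rank of at least 75, held 60 hCG-only and 132 WT-only regions. Of these 41 of 60 (68.3%, 55.8 to 78.7) were LH-wide and 41 of 132 (31.1%, 23.8 to 39.4) PR-wide. Another 45 of the 132 were in both PMSG and both KO lists, so only the hCG libraries lacked them, and none of the 60 were. Absence from both PMSG lists went the other way for WT-only regions, at 46% of the best 100 and 56.2% of those after the first 1000. Absence from both KO lists was near level for hCG-only regions, at 91% and 92.8%. The fall of the LH-wide share with rank thus followed presence in both PMSG lists.

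**Figure D2:**
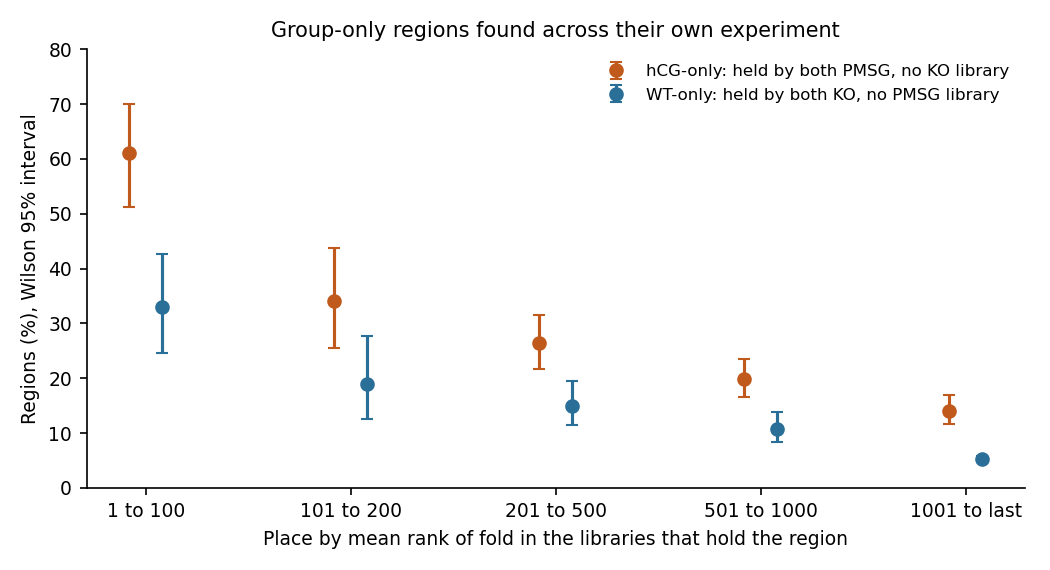
Percent of hCG-only regions that were LH-wide (orange) and of WT-only regions that were PR-wide (blue), by place in the order of mean rank, with Wilson 95% intervals. Both fall from the best 100 regions (61 and 33%) to the weakest (14.0 and 5.34%).

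The 5 best hCG-only regions lay on chromosomes 10, 16, 7 and 18, and 1 of them was inside a gene. The first was chr10:22402540-22402780 (241 bp), between genes and 28.5 kb from Raet1d, which encodes a stress ligand of the natural killer receptor NKG2D. Its fold was 23.5 in both hCG libraries, and neither WT list held it. The second, chr10:22413768-22413997, lay 39.7 kb from the same gene with folds of 22.3 and 20.5. The third was chr16:59617264-59617511, inside Arl6, a small GTPase of primary cilia, with folds of 20.1 and 20.3. The fourth, chr7:103861013-103861240, was 7.92 kb from Hbb-y, an embryonic beta-like globin gene, with folds of 18.2 and 19.4. The fifth lay on chromosome 18, between genes and 518.8 kb from Fzd8, the nearest, with folds of 18.1 and 18.9. Both PMSG libraries held all 5 and no KO library held any, so each was LH-wide.

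The 8 best hCG-only regions at gene starts were all absent from the WT and KO lists and present in both PMSG lists. The region over the Zfp994 start had folds of 18.0 and 18.1 in the hCG libraries, that over the Zfp33b start 16.1 and 17.9, and that over the predicted gene Gm3325 16.3 and 17.02. Zfp994 and Zfp33b encode zinc finger proteins, a large family of DNA-binding proteins with many similar copies. The next were Tcte3, a dynein light chain gene, with 13.9 and 13.7, Apob, the apolipoprotein of low-density lipoprotein, with 13.2 and 14.2, and Gsta1, a glutathione transferase, with 13.7 and 13.3. LOC108167368 (11.6 and 8.51) and 4930522L14Rik (10.3 and 8.77) completed the 8. All 8 were thus LH-wide. In all, 21 of the 47 hCG-only regions at starts were LH-wide.

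Of the 5 best WT-only regions, 3 were PR-wide and 1 was inside a gene. The first was chr6:114584665-114585180, 58.2 kb from Atg7, an enzyme of autophagy, with folds of 23.2 and 22.9 in the WT libraries. The next were chr1:166576494-166577025 52.2 kb from Gm4847 (19.7 and 21.8), chr13:59521211-59521729 inside Agtpbp1 (18.9 and 18.8), chr9:67693733-67694077 22.3 kb from C2cd4b (16.4 and 20.7) and chr3:10750039-10750603 310.2 kb from Snx16, the nearest gene (18.0 and 18.1). Both KO libraries held all 5, and the regions near Atg7, Gm4847 and C2cd4b were PR-wide. PMSG replicate 2 also held the region in Agtpbp1, and both PMSG libraries the one nearest to Snx16.

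At gene starts, the best WT-only region lay at H2-Eb1, the beta chain of a class II major histocompatibility (MHC) molecule. Its folds were 13.6 and 14.99, both KO libraries held it and no PMSG library did. The region over the start of Casp8, the initiator caspase of death receptor signalling, was also PR-wide, with folds of 14.4 and 7.84. Gm21149 (17.1 and 8.53) and Vwa3a (11.9 and 8.73) had the region in every PMSG and KO list as well, so the hCG libraries alone lacked them. Mcpt8, a basophil protease (10.3 and 10.3), Fcrla, a B-cell protein (10.7 and 9.42), and Cyp4f15, a cytochrome P450 (12.2 and 7.74), were held by both PMSG and 1 KO library. Cfap97d2 (13.3 and 8.53) was held by PMSG replicate 1 and no KO library. Of the 191 WT-only regions at starts, 18 were PR-wide.

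**Figure D3:**
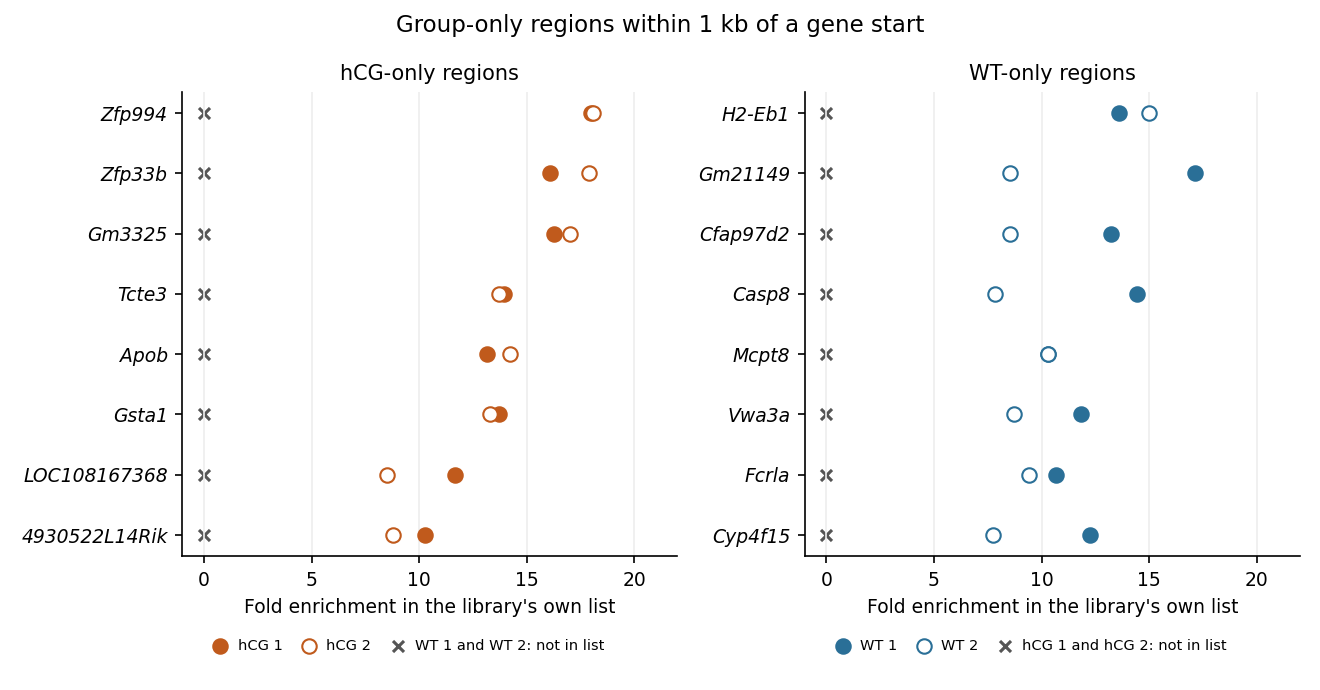
Fold enrichment in each library's own deposited list for the 8 hCG-only (left) and 8 WT-only (right) regions at gene starts with the best mean rank, with filled and open circles for replicates 1 and 2 and crosses at 0 for lists without an interval. Fold is not compared between libraries. The hCG points run from 8.51 at LOC108167368 to 18.1 at Zfp994, and the WT points from 7.74 at Cyp4f15 to 17.1 at Gm21149.

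Promoter sequence was compared between classes over the 300-base windows from 250 bases before to 50 after each start, of which 33 touched an hCG-only region, 103 a WT-only region and 12511 a region held by all 4. CCAAT was present in 21 of 33 hCG-only windows (63.6%, 46.6 to 77.8), in 36 of 103 WT-only windows (34.95%, 26.4 to 44.6), in 37.6% of shared windows and in 38.5% of all 21044 windows. TGANTCA was present in 8 of 33 (24.2%, 12.8 to 41.0), in 7 of 103 (6.80%) and in 7.04% of all windows. GGGCGG was present in 33.3% of hCG-only (19.75 to 50.4), 32.0% of WT-only (23.8 to 41.6) and 68.5% of shared windows, and in 46.7% of all. Its share in windows that touched no region was 13.6%, below both intervals. Median GC was 54% in hCG-only, 54.3% in WT-only and 62% in shared windows. AGAACA was found in 11 of 33 hCG-only windows (33.3%, 19.75 to 50.4), in 23.3% of WT-only and 10.6% of shared windows, and in 16.3% of all. Windows that touched no region of the 4 hCG and WT libraries had a median GC of 47.7% and held AGAACA at 24.8%, within the hCG-only interval, CCAAT at 39.8% and TGANTCA at 10.6%, both below it. The RUNX, GATA and FOX motifs were each found in 1 of 33 hCG-only windows (3.03%), against 4.74%, 9.68% and 3.03% of all windows. The CTCF core was found in 2 (6.06%) and the C/EBP core in 3 (9.09%), against 13.04% and 5.73%. AAGGTCA was found in 0 of 33, which allows a share of up to 10.4% by the Wilson interval, and in 9 of 103 WT-only windows (8.74%, 4.67 to 15.8), against 4.06% of all windows and 6.03% of those that touched no region. Some windows belong to the same gene or to related zinc finger genes, so they are not independent, and no test was made. A match describes letters in the window and is not a binding site.

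Group-only regions were then placed along the chromosomes. The hCG-only share ran from 1.24% on chromosome 19 to 2.16% on chromosome 17 among the autosomes, and was 0.777% on X (19 of 2445 regions, 0.498 to 1.21). The WT-only share was even, from 10.7% to 12.7%. Within windows of 1 Mb holding at least 10 regions, 53.0% of 1966 windows had no hCG-only region and 26 had 5 or more. The median share was 0% for hCG-only and 11.1% for WT-only, and the 95th percentiles were 7.02% and 25%. The windows named next are the extremes of this ranking, and shares in windows of few regions vary most.

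The window with the highest hCG-only share was at 22 to 23 Mb of chromosome 10, with 9 hCG-only regions of 38. It holds Raet1d, Raet1e and H60b, all NKG2D ligand genes, and the 2 best hCG-only regions. Of the 9, 6 were LH-wide, including a region 0.077 kb outside H60b with folds of 9.46 and 8.64, and one inside it with 6.58 and 6.64. The window also held 3 WT-only regions, of which 2 were PR-wide. One of these lay inside H60b at chr10:22282630-22283562, with folds of 14.4 and 14.1. H60b thus had open sites of both classes within the gene. The next windows were at 87 to 88 Mb of chromosome 8, where 6 of 26 regions were hCG-only and all 6 lay inside Zfp423, a zinc finger transcription factor gene, with folds from 3.98 to 9.52, and at 9 to 10 Mb of chromosome 10 (4 of 18, with 3 inside Samd5 and 1 at 35.3 kb from it). In Zfp423, 3 of the 6 were LH-wide, and in the third window none were.

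For WT-only regions the leading window was at 52 to 53 Mb of chromosome 4, with 8 of 13 regions. Of these, 7 lay outside genes, nearest to Toporsl or, for the last, to the olfactory receptor gene Olfr275. Folds there reached 16.2 and 19.3 at chr4:52636806-52637175, which was PR-wide, as were 3 of the 8 in all. Another, chr4:52693508-52694310 (17.1 and 18.1), was found in every PMSG and KO list, so only the hCG lists lacked it. The other two windows were at 103 to 104 Mb of chromosome 6, where 6 of 10 regions were WT-only, and at 70 to 71 Mb of chromosome 3 (5 of 10). In the former, 1 lay inside Chl1, a neural adhesion molecule, 95 bp from its start, and 5 lay between 100.7 and 467 kb from it. In the latter they lay between 5.84 and 818.8 kb from Otol1, the nearest gene.

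**Figure D4:**
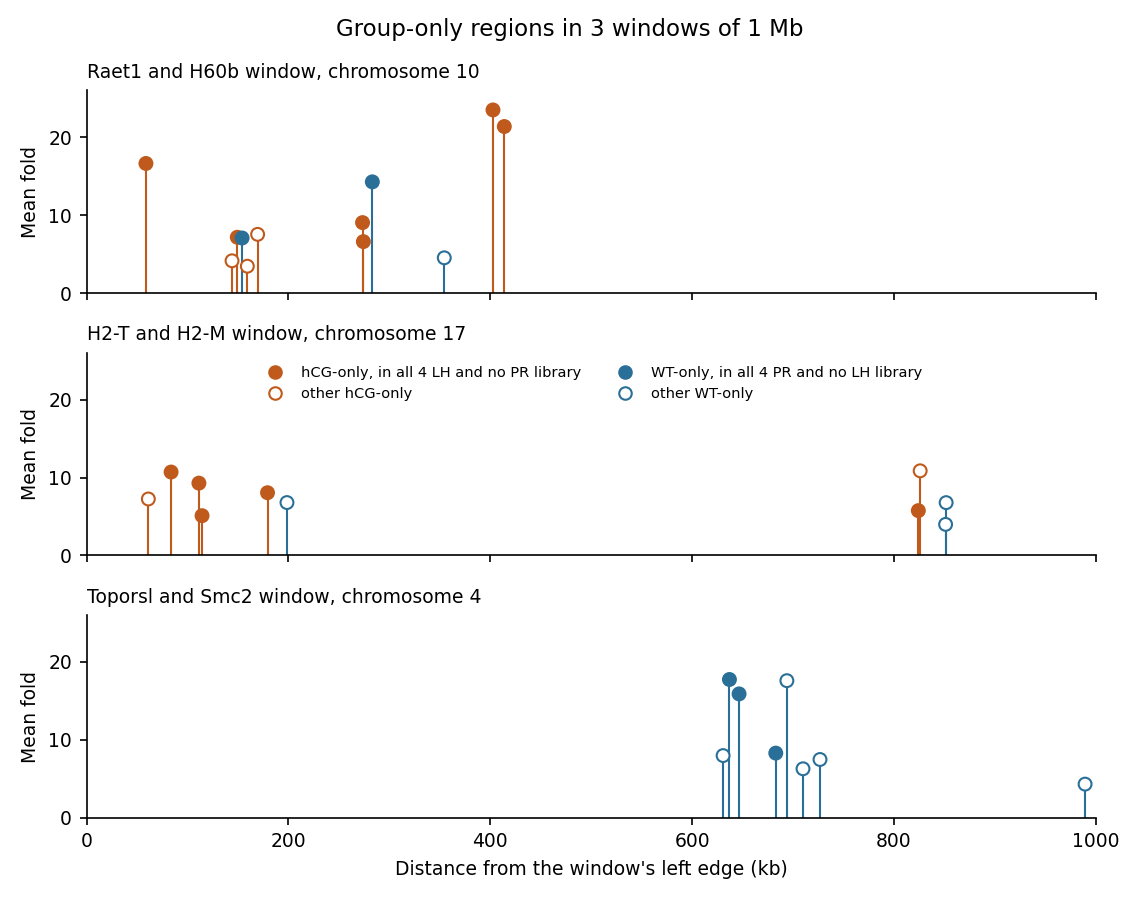
Position in kb from the window's left edge (x) and mean fold of the 2 holding libraries (y) of every group-only region in 3 windows of 1 Mb, with filled circles for LH-wide or PR-wide regions. The Raet1 and H60b window holds 9 hCG-only and 3 WT-only regions, the H2-T and H2-M window 7 and 3, and the Toporsl window 0 and 8.

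MHC genes had the highest hCG-only share among the gene families examined with at least 50 regions. Within 10 kb of the 38 H2 genes, which encode MHC molecules and their relatives and vary widely between inbred strains, 11 of 62 regions (17.7%, 10.2 to 29.0) were hCG-only, against 1.68% of the 69354 regions around all protein-coding genes. Of the 11, 8 were LH-wide, and 8 of the 62 were WT-only (12.9%, 6.69 to 23.4), against 10.8% of all genes. With equal lists 12 of 60 were hCG-only (20%, 11.8 to 31.8), against 6.82%, and 7 were WT-only (11.7%, 5.77 to 22.2), against 4.98%. Both intervals then lay above the share of all genes. The window at 36 to 37 Mb of chromosome 17, which holds H2-T and H2-M genes, had 7 hCG-only regions of 42, 5 of them LH-wide. Among these, chr17:36110711-36111754 lay in H2-T-ps (folds 9.17 and 9.40), and chr17:36083064-36084262 lay 25.02 kb from Gm6034, its nearest gene (10.4 and 11.03). H2 genes form a family of similar copies, and how reads were placed among them was not tested. The families, H2 among them, were chosen with earlier results of these data known, so their shares are descriptions.

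Other families had lower hCG-only shares, some of them above that of all genes. Around 1110 olfactory receptor genes 7 of 108 regions (6.48%, 3.17 to 12.8) were hCG-only and 6 of these LH-wide. Around 397 numbered zinc finger (Zfp) genes 24 of 1183 (2.03%, 1.37 to 3.00) were hCG-only and 98 WT-only (8.28%). Cyp2 genes had 4 hCG-only of 53 regions (7.55%, 2.97 to 17.9), Serpina genes 2 of 22 (9.09%, 2.53 to 27.8) and 1094 predicted (Gm) genes 24 of 934 (2.57%, 1.73 to 3.795). For olfactory receptor, Cyp2, Serpina and Gm genes the interval lay above the 1.68% of all genes. With equal lists all 4 intervals included the 6.82% of all genes, at 10.3%, 11.1%, 10% and 6.52%. There were hCG-only regions at none of the vomeronasal receptor genes (0 of 27, which allows up to 12.5% by the Wilson interval). Klr, Gbp and Ugt genes had no hCG-only region among 13, 11 and 10, and Mup and Skint genes had no region at all.

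The counts around genes of the ovulatory response depended on list length and on single libraries. With all intervals, around 17 LH-induced genes, 2 of 151 regions were hCG-only (1.32%, 0.364 to 4.70) and 22 WT-only (14.6%, 9.82 to 21.1). Around 15 genes active before the surge the counts were 1 and 21 of 150 (WT-only 14%, 9.34 to 20.5), and around 13 genes known to depend on PGR 1 and 10 of 120 (WT-only 8.33%, 4.59 to 14.7). The WT-only intervals all include the 10.8% of all genes. Without WT replicate 1 the WT-only count was 44 for LH-induced and 32 for PGR-dependent genes, and without WT replicate 2 it was 37 for pre-surge genes. The hCG-only counts, of 1 or 2, then reached 5 without hCG replicate 2 for LH-induced genes, and 6 and 5 without WT replicate 2 for the other lists. With equal lists the sides switched. LH-induced genes then had 24 hCG-only regions of 106 (22.6%, 15.7 to 31.5) and 3 WT-only, pre-surge genes 20 of 104 (19.2%, 12.8 to 27.8) and 2, and PGR-dependent genes 14 of 88 (15.9%, 9.72 to 24.95) and 3. All 3 hCG-only intervals lay above the 6.82% of all genes in that setting, where 4.98% were WT-only. A full WT list held 23 of those 24, 19 of the 20 and 13 of the 14, so most were sites whose WT interval fell below the shorter list's limit.

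**Figure D5:**
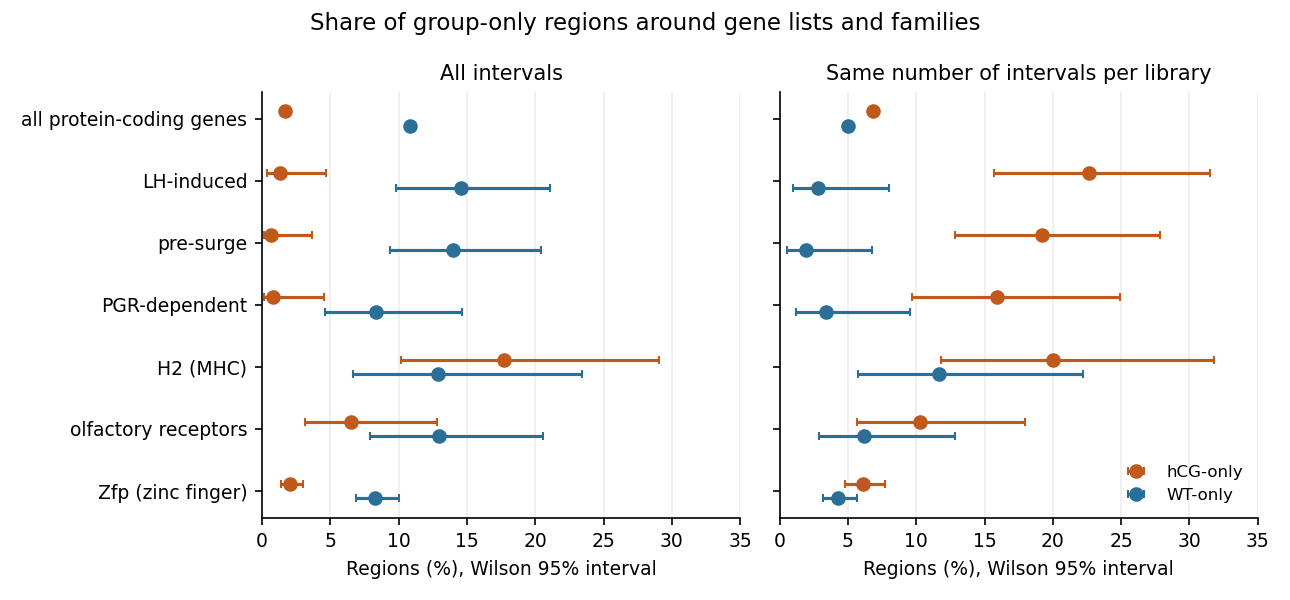
Percent of regions that were hCG-only (orange) or WT-only (blue) within 10 kb of the genes of each list, with Wilson 95% intervals, using all intervals (left) and the same number from every library (right). The 3 ovulation lists change sides between the panels, whereas the H2 genes hold 17.7% and 20% hCG-only regions.

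Among the listed genes and with all intervals, WT-only regions were most numerous at Runx2, Fshr and Nr5a2. Runx2, a transcription factor induced by LH, had 7 WT-only of 39 regions, Fshr, the receptor of follicle-stimulating hormone, 6 of 14, and Nr5a2, a nuclear receptor of granulosa cells, 5 of 27. With equal lists Runx2 had 8 hCG-only and 1 WT-only region and Nr5a2 3 and 0, whereas Fshr had 0 and 2. In Fshr 1 of the 6 was held by both KO libraries and 2 by both PMSG libraries. Its strongest, chr17:89120138-89120431, had folds of 6.93 and 10.7 and was in none of the other libraries. Both classes were found at Tnfaip6, which stabilises the cumulus matrix (1 hCG-only and 2 WT-only), at Runx1 (1 and 2), at Foxo1, a factor active before the surge (1 and 2), and at Zbtb16, a PGR-dependent zinc finger gene (1 and 3). Vcan, the matrix proteoglycan versican, had 3 WT-only regions. Inha, Esr2, Epas1, Nrip1, Cebpb and Sult1e1 had 2 each, and Ccnd2, Cyp11a1, Cyp19a1, Ereg, Inhba, Inhbb, Prkg2, Snap25 and Sphk1 had 1 each. Most of these genes changed sides with equal lists. Runx1 and Vcan then had 5 hCG-only and 0 WT-only regions each, Foxo1 4 and 0, Zbtb16 4 and 1, Tnfaip6 1 and 0, and Nrip1, Cebpb and Epas1 2 and 0 each. Inha and Esr2 had 1 and 0, and Sult1e1 0 and 1. Of the 9 genes with 1 WT-only region, 7 had an hCG-only region in that setting, Snap25 among them with 1 and 1. Prkg2 had 0 and 1, and Sphk1 had 0 and 0. Of the 17 LH-induced genes 2 had an hCG-only region and 10 a WT-only region, of the 15 pre-surge genes 1 and 9, and of the 13 PGR-dependent genes 1 and 5. Over all protein-coding genes 5.66% had an hCG-only and 25.4% a WT-only region. With equal lists the genes with an hCG-only and with a WT-only region numbered 10 and 3, 12 and 1, and 6 and 3, and over all protein-coding genes the shares were 16.8% and 12.4%. The lists hold several long genes with many regions, and gene length was not matched.

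At the starts of the same genes an interval was mostly present in all 4 libraries. Of the listed genes with a start position, 13 of 14 LH-induced, 11 of 11 pre-surge and 8 of 9 PGR-dependent genes had an interval at the start in all 4. Over all 21044 listed starts this share was 62.3%, so an open start is common to most genes. The exceptions were Sult1e1, an oestrogen sulfotransferase, and Adcyap1, the peptide PACAP, which had none in any of the 4. Ptgs2, the prostaglandin synthase of ovulation, had folds of 12.7 and 11.03 in hCG and 11.9 and 12.2 in WT. Areg, an epidermal growth factor-like ligand, had 11.95 and 10.9 in hCG and 15.5 and 14.0 in WT. Il6 had 12.9 and 12.9 in hCG and 16.6 and 16.3 in WT, and Edn2, the endothelin of follicle rupture, 11.1 and 9.78 and then 14.2 and 12.9. Fold is relative to each library's own background, so these levels are not compared across libraries.

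Pgr itself was open in every library. The interval at its start had folds of 4.50 and 4.71 in hCG and 5.35 and 6.00 in WT, and 5.33 and 6.35 in PMSG and 5.46 and 7.44 in KO. A pair of WT-only regions lay near it, at chr9:8895343-8895511 outside the gene and at chr9:8910440-8910618 inside it, and neither was in a PMSG or KO list. With equal lists Pgr had 1 WT-only and 0 hCG-only of 3 regions.

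Starts of granulosa markers were open in both groups. All 7 granulosa markers with a start position (Foxl2, Fshr, Cyp19a1, Inha, Amhr2, Nr5a2 and Esr2) were held by all 4 libraries. So were 62.3% of all 21044 listed starts, the background for every marker count here. Foxl2, the factor that maintains granulosa identity, had folds of 4.37 and 4.43 in hCG and 5.67 and 6.02 in WT. None of 4 oocyte markers had an interval in any of the 4. Of other cell types, Kdr of endothelium (1 of 4), Ptch1 and Tcf21 of theca and stroma (2 of 4), Krt8 and Krt18 of surface epithelium (2 of 3) and Klf1 of erythroid cells (1 of 4) were held by all 4. Pdgfra was held by WT replicate 1 alone. Cd68, a macrophage marker, was the 1 marker held by a single group. It had folds of 3.21 and 3.78 in the hCG libraries and no interval in the WT, PMSG or KO lists, while the other 2 leukocyte markers with a start were held by no library. Whether leukocytes contributed to the hCG libraries was not tested.

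Regions held by all 4 kept much of their order. Over the 54151 shared regions, Spearman's rho of fold was 0.949 between the hCG replicates, 0.898 between the WT replicates and 0.828 to 0.878 across the groups. These are descriptions over regions within 4 libraries, which are not independent replicates. The hCG rank exceeded the WT rank by over 25 percentile points at 778 regions (1.44%), and the reverse held at 580 (1.07%). Across the groups 8.32% to 12.9% of regions moved by over 25 points between 2 single libraries, against 1.91% between the hCG replicates and 6.40% between the WT replicates. The cross-group shift was therefore larger than the replicate spread in hCG and only moderately larger than that in WT.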

How the data were processed

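ATAC-seq peak lists of 4 libraries were compared, with 4 more for look-up. Per the submitters' processing notes, Bowtie2, MACS2 and mm10 were used, and other settings are not given in the sources used here. The lists have no header and were read by the 10-column narrowPeak layout. Column 7 of the deposited lists is the fold enrichment of a summit (a linear ratio), and columns 8 and 9 are −log10 p and q. The deposited score (column 5) was not used. No list held a −log10 q under 10. Peak names in the WT and KO lists carry a prefix that speaks of filtering and marked duplicates, and those of the hCG and PMSG lists do not.

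Summits sharing an interval were counted once, at the best fold. Intervals of the 4 lists sharing 1 bp were merged, and a region counts as held wherever the library's list has an interval in it. Coordinates are counted from 1. Genes and starts are those of RefSeq GRCm38.p6 (21627 protein-coding genes, 21044 starts of 17273 genes). The start table holds none of chromosome 18, so shares at starts leave it out. Motifs were searched in promoters only, as no genome was used here. Intervals are Wilson 95%. Scripts used Python 3.11.15, pandas 2.3.3 and scipy 1.17.1, and recovered the known classes of simulated lists. The text names the 5 best group-only regions per group by mean rank, the 8 best at a start, 3 windows per group, and list genes with a group-only region, plus markers held by 1 group. The members (this pair of groups) and the gene lists, families and motifs were chosen with earlier results of these data known. Alternatives were list length, a −log10 q of 20, 100 bp of shared sequence, autosomes only, other flanks and distances, and leaving out each replicate.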

Additional observations from a re-analysis of the deposited data

Results flagged for a closer look

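Intervals outside chromosomes 1 to 19 and X entered no comparison. There were 19 in hCG replicate 1, 17 in hCG replicate 2, 15 in WT replicate 1 and 13 in WT replicate 2, on chromosome Y and unplaced contigs. These intervals lie in sequence that was not analysed, and how their reads were placed was not tested. On chromosome Y they numbered 9 and 8 in hCG and 5 and 4 in WT. The highest fold among them was 26.7 in both hCG libraries and 18.6 and 23.7 in the WT libraries.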

How the results depend on the processing

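No paired analysis was possible because the values are peak lists with no model to hold a block, and the replicate numbers belong to separate experiments. Similarity, interval number, covered length and the share at gene starts kept their direction under every alternative run for them, although the start difference was 0.624 instead of 3.36 points with equal lists. With the same number of intervals per library, hCG-only regions numbered 5264 and WT-only 4687, LH-wide regions made up 11.9% of hCG-only, and PR-wide 8.92% of WT-only. The hCG-only counts around LH-induced, pre-surge and PGR-dependent genes were then 24, 20 and 14, and the WT-only counts 3, 2 and 3. With the best 20000 intervals there were 1294 WT-only regions. With all intervals, 6066 WT-only regions were also absent from both PMSG lists. With flanks of 50 kb the hCG-only counts were 5 and 2 for LH-induced and pre-surge genes, and the WT-only counts 37, 34 and 20. Leaving out 1 replicate gave 2115 to 3991 hCG-only and 12696 to 19544 WT-only regions, 13.5% to 23.1% LH-wide and 4.01% to 6.72% PR-wide. The hCG-only counts of the 3 lists then ran from 2 to 5, 1 to 6 and 1 to 5, and the WT-only counts from 25 to 44, 24 to 37 and 11 to 32. A replicate left out loosens the class by construction. Of the 13 named regions per class, all stayed in their class under each alternative run for them but the best 20000 intervals, where 11 hCG-only and 6 WT-only stayed. Leaving out a replicate or chromosome X could not remove any of them. Absence from the PMSG or KO lists was not among the alternatives run for them. PMSG libraries held several of the WT-only ones, such as those at Gm21149 and Vwa3a. Of the hCG-only regions 88.9% were hCG-only with equal lists, and of the WT-only regions 42.1% WT-only. Depth is unknown, and 2 libraries per group allow no p below 0.333.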
